A study of Arabidopsis thaliana with 6 samples.

Results

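The transcripts described here come from 37 genes of the hypoxia response of the model plant Arabidopsis thaliana, among 32833 gene identifiers counted. They were chosen by gene identifier as the core of genes known to be induced by low oxygen, together with the ERF-VII transcription factors that act on them, and 35 of them had enough counts to be tested. The tested line is labelled myb68 myb84, after the genes of a pair of R2R3 MYB transcription factors, and it was set against the wild type Col. Each genotype had 3 libraries, each made from the 2 uppermost centimetres of the primary roots of at least 40 plants aged 18 days. All plants grew in vitro on half-strength MS medium at 22 °C in constant light, and none received a treatment, so the levels below are those of roots with no imposed oxygen shortage. The study asks how the MYB factors act on suberin deposition. What kind of mutant alleles the line carries was not stated in the labels, and the design text names MYB86 at the place where the sample labels name myb84.

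Plants sense oxygen through the stability of ERF-VII proteins. In air, plant cysteine oxidases (PCO) oxidise the cysteine that follows the start methionine of these proteins, arginyl transferases and the ligase PRT6 then mark them for breakdown, and nitric oxide takes part in the same route. When oxygen falls, the stabilised factors switch on a core set of genes, among them those of ethanol fermentation, sucrose breakdown by sucrose synthase, a phytoglobin that removes nitric oxide, and the PCO enzymes and the factor HRA1, which hold the response back. Some of these genes are also expressed in plants grown in air, where dense or bulky tissues hold less oxygen than their surroundings.

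The libraries held 40401311, 32216039 and 55907128 counts in myb68 myb84 replicates 1, 2 and 3, and 51770078, 26856622 and 19446419 counts in WT replicates 1, 2 and 3. MYB84 averaged 6.0 ± 1.14 CPM (counts scaled to library size) in myb68 myb84 roots and 9.92 ± 2.69 CPM in WT roots, and MYB68 averaged 67.8 ± 7.03 CPM in myb68 myb84 roots and 53.7 ± 7.42 CPM in WT roots (SD, n = 3 each). MYB84 fell by 0.70 on the log2 scale (adjusted p = 0.0442) and MYB68 did not pass the test (0.34, adjusted p = 0.0613), both by edgeR's quasi-likelihood test with Benjamini-Hochberg adjustment over all genes. MYB84 no longer passed once any of WT 1, WT 3, myb68 myb84 1 and myb68 myb84 2 was dropped (up to 0.149), in limma-voom (0.0613) or in libraries thinned to equal depth (0.0875). MYB68 passed as higher without WT 3 (0.00666), without myb68 myb84 1 (0.0471), in DESeq2 (0.0311), with no filter on low counts (0.0407) and with the replicate number as a block (0.00999). Markers of root cells were present, with summed levels of 12536 to 14891 CPM in myb68 myb84 and 13502 to 15615 CPM in WT for 4 root genes. Most of this sum is PYK10, which did not pass, and 2 of the 4 rose, as did 2 of 4 endodermis markers (MYB36 and SCR) and 2 of 3 root hair and epidermis markers (EXPA7 and COBL9). With a library left out, 0 to 1, 1 to 2 and 0 to 1 markers of these 3 lists rose. Markers of suberized cells summed to 289 to 347 CPM in myb68 myb84 and to 419 to 447 CPM in WT, and 3 of the 4 fell. Markers of green tissue summed to 2610 to 3010 CPM in myb68 myb84 and to 1424 to 2352 CPM in WT, with WT 3 the lowest library, while the stomatal gene FAMA was near 0 in both genotypes. Of these, 2 of the 4 that were tested rose, and 1 did so when myb68 myb84 1, 2 or 3 was left out. RBCS2B, a small subunit gene of Rubisco in the same list, averaged 2.29 ± 0.544 CPM in myb68 myb84 and 12.2 ± 8.99 CPM in WT (SD, n = 3 each), with WT 3 close to the mutant libraries, and did not pass (-2.45, adjusted p = 0.137, edgeR); it passed as lower in DESeq2, in limma-voom and without WT 3. The part of these markers in the results below was not tested. In whole root segments, fewer cells of a type and less RNA per cell cannot be told apart.

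The ERF-VII factors share a cysteine codon after the start codon. The first 30 coding bases of each of the 5 are shown because the PCO enzymes act on this cysteine. They were read from RefSeq gene models on the TAIR10.1 assembly, and the capitals mark the second codon, which codes for cysteine.
RAP2.12, chr1:20135242-20135271, plus strand: atgTGTggaggagctataatatccgatttc
RAP2.2, chr3:4738971-4739000, minus strand: atgTGTggaggagctataatctccgatttc
RAP2.3, chr3:5705784-5705813, plus strand: atgTGTggcggtgctattatttccgattat
HRE1, chr1:27241904-27241933, plus strand: atgTGCggaggagctgtaatttccgattac
HRE2, chr2:19503461-19503490, minus strand: atgTGTgggggagctatcatttctgatttc
A second gene model of HRE1 starts further downstream, with the bases atgTCTcaaagctttgaactttatccatgg at chr1:27242142-27242171, and codes for serine there; the counts are per gene and do not separate the models. AT4G24110, another member, also has a cysteine codon at this place. Of all coding genes, 290 of 27381 (1.06%) have one in at least 1 model. The ERF-VII genes share this codon and were put in the list as a family, so the members' count is not set against that share.

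None of the 35 tested hypoxia genes was raised in myb68 myb84, and 3 were lowered: the transcription factor genes HRA1 and LBD41 and the kelch repeat gene AT3G27220. These 3 are 8.57% of the tested members, while 8.3% of all 20941 tested genes were called, 3.65% lower and 4.66% higher. Log2 fold changes ran from -1.47 to 0.51 with a median of -0.29, and 22 were negative and 13 positive; over all tested genes the median was -0.00 and 50.5% were negative. Before adjustment, 10 members had a p under 0.05 with a lower level and 2 with a higher one, where the shares over all genes were 10.8% and 11.2%. The 3 libraries of one genotype lay apart from the 3 of the other in 9 members, 6 lower and 3 higher, where 27.3% of all tested genes were so separated, 13.3% lower and 14% higher. DESeq2 called 5 members lower and 0 higher, with 4.58% of its genes lower, and limma-voom called 4 and 0, with 3.91% lower. The number lowered rested on single libraries. It was 1 without myb68 myb84 1, without myb68 myb84 3, without WT 1 or without WT 2, where 2.48%, 2.33%, 2.07% and 3.01% of all tested genes were lower. Without myb68 myb84 2 it was 2 (2.21% of all genes) with 1 member raised (2.77%), and without WT 3 it was 11 of 36 (3.39%) with 1 raised (4.44%). HRA1 was lowered in all 6 of these fits, and the 2 other called genes were not.

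**Figure D1:**
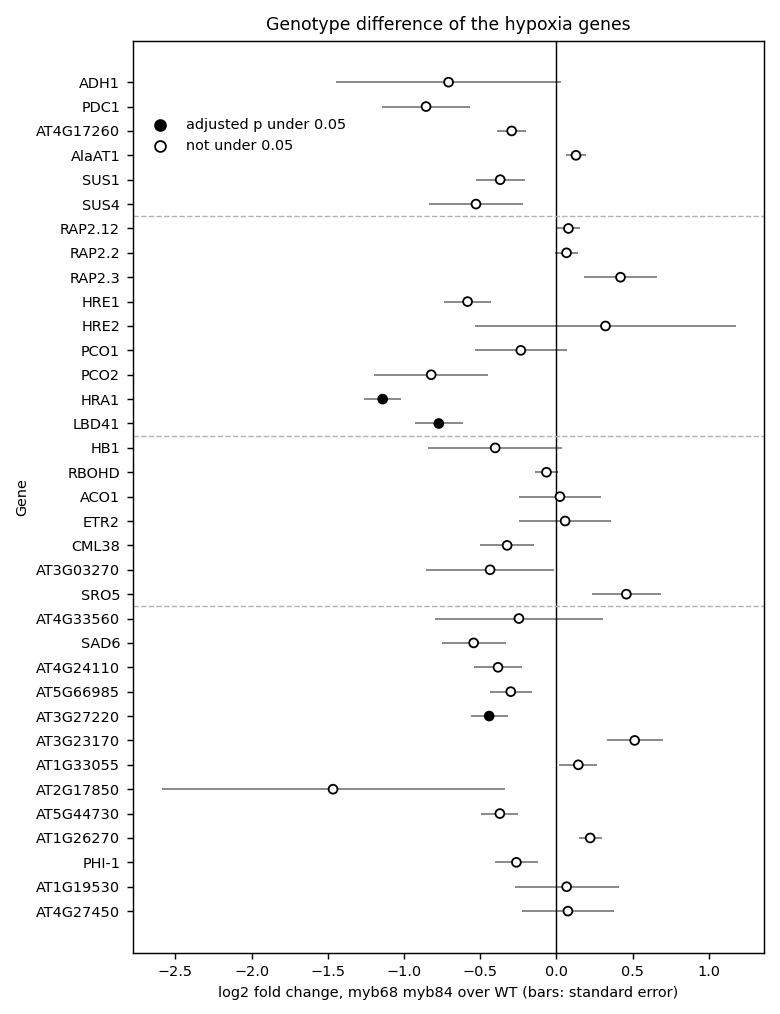
Log2 fold change of myb68 myb84 over WT (x axis) for the 35 tested hypoxia genes (y axis), with bars of 1 standard error; dashed lines separate, from the top, fermentation and sucrose entry, oxygen sensing and transcription, signalling, and other genes. Filled circles mark HRA1, LBD41 and AT3G27220, the 3 genes with an adjusted p under 0.05, all to the left of 0.

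Among the 9 genes of oxygen sensing and transcription, 2 fell, 0 rose and 7 did not pass, with a median log2 fold change of -0.23. HRA1 (AT3G10040, chr3:3096345-3098417, minus strand) encodes a trihelix factor that binds RAP2.12 and dampens its activity. It had 6.65, 6.24 and 7.15 CPM in the myb68 myb84 libraries, against 15.7, 15.4 and 13.1 CPM in the WT libraries. Every mutant library lay below every WT library. HRA1 fell by 1.14 on the log2 scale with a standard error of 0.12 (adjusted p = 0.000106, edgeR), to a level of 0.454 times WT, and the adjusted p stayed at or under 0.00143 whichever library was left out. The 250 bases before its annotated start are shown because it is the member with the firmest difference; none of the 4 motifs named further on occurs in them.
HRA1, chr3:3098418-3098667, minus strand, TAIR10.1: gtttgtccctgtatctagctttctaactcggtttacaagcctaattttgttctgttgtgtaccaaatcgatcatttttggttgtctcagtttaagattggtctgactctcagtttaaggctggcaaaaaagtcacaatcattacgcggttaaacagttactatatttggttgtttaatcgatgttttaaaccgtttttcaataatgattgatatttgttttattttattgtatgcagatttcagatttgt

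LBD41 (AT3G02550, chr3:536500-538126, minus strand), a LOB domain factor gene of the core hypoxia set, had 41.0, 38.3 and 38.3 CPM in the myb68 myb84 libraries, against 76.9, 74.8 and 48.3 CPM in the WT libraries. The mutant libraries were close together, and the gap to them was small for WT 3 and large for WT 1 and WT 2. LBD41 fell by 0.77 on the log2 scale with a standard error of 0.16 (adjusted p = 0.0225, edgeR). The call ended when any library but WT 3 was left out (adjusted p up to 0.0953) and with no filter on low counts (0.055). Its upstream window holds a G-box (CACGTG, in capitals), a palindrome that reads alike on both strands.
LBD41, chr3:538127-538376, minus strand, TAIR10.1: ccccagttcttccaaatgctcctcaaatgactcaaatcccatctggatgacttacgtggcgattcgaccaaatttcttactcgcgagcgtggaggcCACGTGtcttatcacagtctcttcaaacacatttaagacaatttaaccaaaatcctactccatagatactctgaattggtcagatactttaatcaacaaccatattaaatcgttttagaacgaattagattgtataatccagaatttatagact

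HRE1 (AT1G72360, chr1:27241696-27242968, plus strand), an ERF-VII factor gene that is itself hypoxia-induced, had 82.2, 92.2 and 65.5 CPM in the myb68 myb84 libraries, against 138, 124 and 96.8 CPM in the WT libraries. The groups did not overlap, though the lowest WT library and the highest mutant library were close. The log2 fold change was -0.58 (SE 0.15) and did not pass (adjusted p = 0.0585, edgeR); it passed in DESeq2 (0.000413), in limma-voom (0.0212), with upper-quartile scaling (0.0499), in libraries thinned to equal depth (0.0474), with the replicate number as a block (0.000469), without myb68 myb84 2 (0.0408) and without WT 3 (0.00618). HRE1 overlaps AT1G72370 on the other strand, and their reads cannot be told apart without strand.

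The other ERF-VII genes did not pass the test. RAP2.12, a main activator of the response, had 377, 378 and 384 CPM in myb68 myb84 and 366, 372 and 340 CPM in WT. Its groups did not overlap, with a difference of 0.08 on the log2 scale (adjusted p = 0.589, edgeR). RAP2.2, its closest relative in the list, had 308, 311 and 288 CPM in myb68 myb84 and 285, 305 and 275 CPM in WT, a difference of 0.07 (adjusted p = 0.669). In both genes the 6 libraries lay within a narrow band. RAP2.3 had 254, 266 and 204 CPM in myb68 myb84 and 199, 220 and 121 CPM in WT, where WT 3 was far below the others, and its difference of 0.42 did not pass (adjusted p = 0.379). HRE2 was barely detected, with 16, 10 and 4 counts in the myb68 myb84 libraries and 8, 11 and 0 counts in the WT libraries. Taken as independent counts, the 0 in WT 3 allows up to 0.152 CPM.

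The PCO genes that are themselves induced by hypoxia varied mostly within WT. PCO1 had 20.8, 14.4 and 14 CPM in myb68 myb84 and 21.8, 24.1 and 11.3 CPM in WT, and PCO2 had 3.04, 2.25 and 1.78 CPM in myb68 myb84 and 5.50, 4.87 and 1.73 CPM in WT. In both, WT 3 was the lowest of all 6 libraries and the groups overlapped. The log2 fold changes were -0.23 for PCO1 (adjusted p = 0.727, edgeR) and -0.82 for PCO2 (adjusted p = 0.237). Without WT 3 PCO2 passed, at -1.15 (adjusted p = 0.00737), and 4 genes of this role were lowered; 1 was lowered in each fit without WT 1, WT 2, myb68 myb84 1 or myb68 myb84 3.

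**Figure D2:**
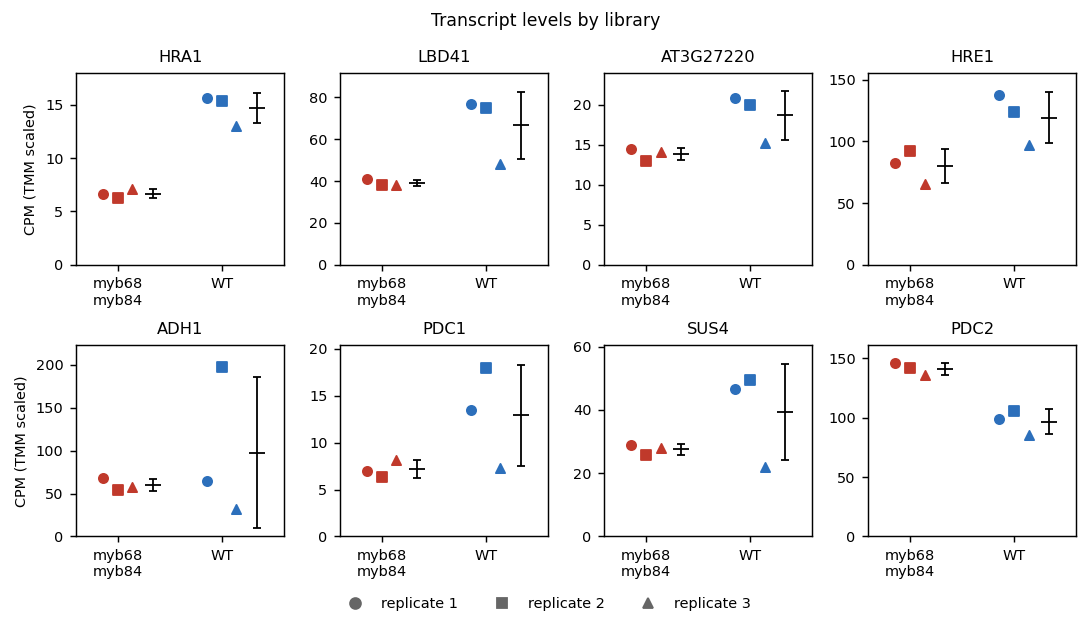
CPM after TMM scaling (y axis, from 0) in the 3 myb68 myb84 libraries (red, left) and the 3 WT libraries (blue, right) for 7 members and for PDC2, with the mean and SD of each group beside the points; symbols give the replicate number. HRA1 separates the genotypes in every library, while the fermentation genes ADH1, PDC1 and SUS4 spread widely in WT, with WT 2 highest and WT 3 lowest.

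None of the 6 genes of fermentation and sucrose entry passed, in either direction, although 5 had negative log2 fold changes and the median was -0.45. Before adjustment the p was under 0.05 for 2 lower members and 0 higher ones, and DESeq2 gave 1 call, a lower PDC1. ADH1 (AT1G77120, chr1:28975255-28977417, plus strand) encodes the alcohol dehydrogenase that makes ethanol. It had 67.8, 53.6 and 58.1 CPM in the myb68 myb84 libraries, against 64.4, 197 and 31.4 CPM in the WT libraries. The mutant libraries lay between WT 3 and WT 2, which differed from each other by a factor of 6.27. The log2 fold change was -0.71 with a standard error of 0.74 (adjusted p = 0.667, edgeR), and without WT 2 it was 0.30. The window before ADH1 is shown because it holds AAACCA followed after any 3 bases by GC, and a G-box, both in capitals. The first is a loose pattern for the hypoxia-responsive promoter element bound by ERF-VII factors, and binding to it was not tested. ADH1 overlaps AT1G77122 on the other strand.
ADH1, chr1:28975005-28975254, plus strand, TAIR10.1: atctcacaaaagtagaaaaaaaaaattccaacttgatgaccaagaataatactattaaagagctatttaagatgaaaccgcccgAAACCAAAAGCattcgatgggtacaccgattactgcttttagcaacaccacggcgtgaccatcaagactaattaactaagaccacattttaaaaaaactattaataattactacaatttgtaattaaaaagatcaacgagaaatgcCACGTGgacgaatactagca

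PDC1, the hypoxia-induced pyruvate decarboxylase that feeds ADH1, had 7.02, 6.30 and 8.16 CPM in the myb68 myb84 libraries, against 13.4, 18.0 and 7.26 CPM in the WT libraries. WT 1 and WT 2 were above all mutant libraries and WT 3 was among them. The log2 fold change was -0.86 with a standard error of 0.29 (adjusted p = 0.129, edgeR). In SUS1 and SUS4, sucrose synthases that open the breakdown of sucrose, WT 1 and WT 2 were likewise above all mutant libraries, and WT 3 was below all of them. SUS1 had 112, 115 and 115 CPM in myb68 myb84 and 162, 172 and 106 CPM in WT, a log2 fold change of -0.37 (adjusted p = 0.229). SUS4 had 29.0, 25.7 and 27.9 CPM in myb68 myb84 and 46.6, 49.5 and 22.0 CPM in WT, a log2 fold change of -0.53 (adjusted p = 0.405). Without WT 3, PDC1 (-1.11, adjusted p = 0.000482), SUS1 (-0.55, 0.000492) and SUS4 (-0.80, 6.47e-05) were lowered, and without WT 2 none of the 3 passed.

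The remaining genes of this role did not pass either. AT4G17260, annotated as a lactate/malate dehydrogenase, had 16, 16.9 and 15.8 CPM in myb68 myb84 and 20.4, 20.9 and 18.3 CPM in WT, groups that did not overlap, with a log2 fold change of -0.29 (adjusted p = 0.0799, edgeR). AlaAT1, an alanine aminotransferase that stores nitrogen and carbon as alanine when oxygen is short, had 137, 131 and 123 CPM in myb68 myb84 and 119, 119 and 119 CPM in WT. These groups did not overlap either, and the log2 fold change was 0.13 (adjusted p = 0.302, edgeR).

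The 7 genes of nitric oxide, reactive oxygen, ethylene and calcium signalling had 0 calls in either direction, 0 before adjustment of the p and 0 in DESeq2 and limma-voom, with a median log2 fold change of -0.06. HB1, the hypoxia-induced phytoglobin, had 19.8, 14.3 and 12.9 CPM in myb68 myb84 and 22.9, 29.2 and 9.25 CPM in WT. WT 2 was the highest and WT 3 the lowest library, and the log2 fold change was -0.40 (adjusted p = 0.679, edgeR); it was -0.72 without WT 3, where it passed (adjusted p = 0.0418). SRO5, known from salt and oxidative stress, had 6.92, 6.52 and 4.40 CPM in myb68 myb84 and 3.82, 3.46 and 5.84 CPM in WT, a log2 fold change of 0.46 (adjusted p = 0.263), and it overlaps AT5G62530 on the other strand. AT3G03270, of the adenine nucleotide alpha hydrolase-like family, had 33.8, 26.8 and 28.3 CPM in myb68 myb84 and 27, 66.4 and 27.1 CPM in WT. WT 2 alone stood out there, and the log2 fold change of -0.43 (adjusted p = 0.636) was 0.13 without it. RBOHD, an oxidase that makes reactive oxygen at the plasma membrane, ACO1 and ETR2, which act in ethylene synthesis and perception, and the calmodulin-like gene CML38 had log2 fold changes of -0.06, 0.02, 0.06 and -0.32.

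Of the 15 other hypoxia-induced genes 13 were tested, and 1 fell, 0 rose and 12 did not pass, with a median log2 fold change of -0.26. AT3G27220 (chr3:10051069-10053761, minus strand), a galactose oxidase/kelch repeat protein gene, had 14.5, 13 and 14.1 CPM in the myb68 myb84 libraries, against 20.9, 20.0 and 15.2 CPM in the WT libraries. The groups did not overlap, but WT 3 was close to the mutant libraries. AT3G27220 fell by 0.44 on the log2 scale with a standard error of 0.12 (adjusted p = 0.0409, edgeR), and the call ended when any library but WT 3 was left out (adjusted p up to 0.182).

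The largest fold change in the list was also the least certain. AT2G17850, a rhodanese-like gene, had 16, 2 and 24 counts in the myb68 myb84 libraries and 10, 62 and 2 counts in the WT libraries. Most of its WT counts came from WT 2, and the log2 fold change was -1.47 (SE 1.13, adjusted p = 0.522, edgeR), but 0.92 without that library. SAD6, of the stearoyl-acyl-carrier desaturase family, had 9.72, 6.27 and 7.31 CPM in myb68 myb84 and 11.2, 14.4 and 8.18 CPM in WT, a log2 fold change of -0.54 (adjusted p = 0.157). AT5G44730 (-0.37, adjusted p = 0.0831) and AT1G26270 (0.22, adjusted p = 0.0946) had groups that did not overlap and did not pass. The phosphatidylinositol kinase family gene AT1G26270 had 108, 109 and 106 CPM in myb68 myb84 and 89.4, 86.2 and 102 CPM in WT. AT3G23170 had 8.35, 5.33 and 7.83 CPM in myb68 myb84 and 4.40, 5.67 and 5.18 CPM in WT, the largest positive log2 fold change of the list (0.51, adjusted p = 0.114), and it passed without myb68 myb84 2 (adjusted p = 0.0395). The rest, AT4G33560, AT4G24110, AT5G66985, AT1G33055, PHI-1, AT1G19530 and AT4G27450, lay between -0.38 and 0.14. Of these, AT1G33055 overlaps AT1G33050 and AT4G27450 overlaps AT4G27440, as AT5G44730 overlaps AT5G44720.

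The 2 members that were not tested were close to or at 0 counts. AT5G10040 had 6, 6 and 14 counts in the myb68 myb84 libraries and 6, 80 and 2 counts in the WT libraries, so that WT 2 held most of its reads; the gene lies wholly within AT5G10030 on the other strand. AT4G10270, of the wound-responsive family, had 0 counts in every library. Taken as independent counts, this allows up to 0.0535 CPM in the deepest and 0.152 CPM in the shallowest library. Of its 477 bases, 377 overlap AT4G05775 and 86 overlap AT4G10280, both on the other strand. The labels do not say how reads of overlapping genes were counted. If such reads were left out, the counts of 0 set no limit on AT4G10270.

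The members were more alike among the mutant pools than among the WT pools. The SD of log2 CPM over 3 libraries was larger in WT than in myb68 myb84 for 32 of 35 members (91.4%), while the same held for 59.6% of all tested genes. Its median was 0.19 in myb68 myb84 and 0.38 in WT for the members, against 0.11 in myb68 myb84 and 0.14 in WT over all tested genes. WT 2 and WT 3 stood at opposite ends of this spread. WT 2 was the highest of the 6 libraries in 17 of 35 members (48.6%, against 19.6% of all tested genes) and WT 3 the lowest in 17 of 35 (48.6%, against 20.6%). The median deviation of the members from the mean of the 6 libraries was 0.03, -0.16 and -0.18 on the log2 scale in myb68 myb84 1, 2 and 3, and 0.11, 0.40 and -0.20 in WT 1, 2 and 3. WT 3 was thus the lowest library in this measure, close to myb68 myb84 2 and 3, while myb68 myb84 1 lay nearer to WT 1. WT 3 was also the shallowest library and the one with the lowest summed green tissue markers, 1424 CPM against 2178 CPM in WT 1 and 2352 CPM in WT 2. The part of these in the spread was not tested. WT 2 was highest and WT 3 lowest also in ADH1, SUS1 and AT4G27450, which had at least 619 counts in every library.

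**Figure D3:**
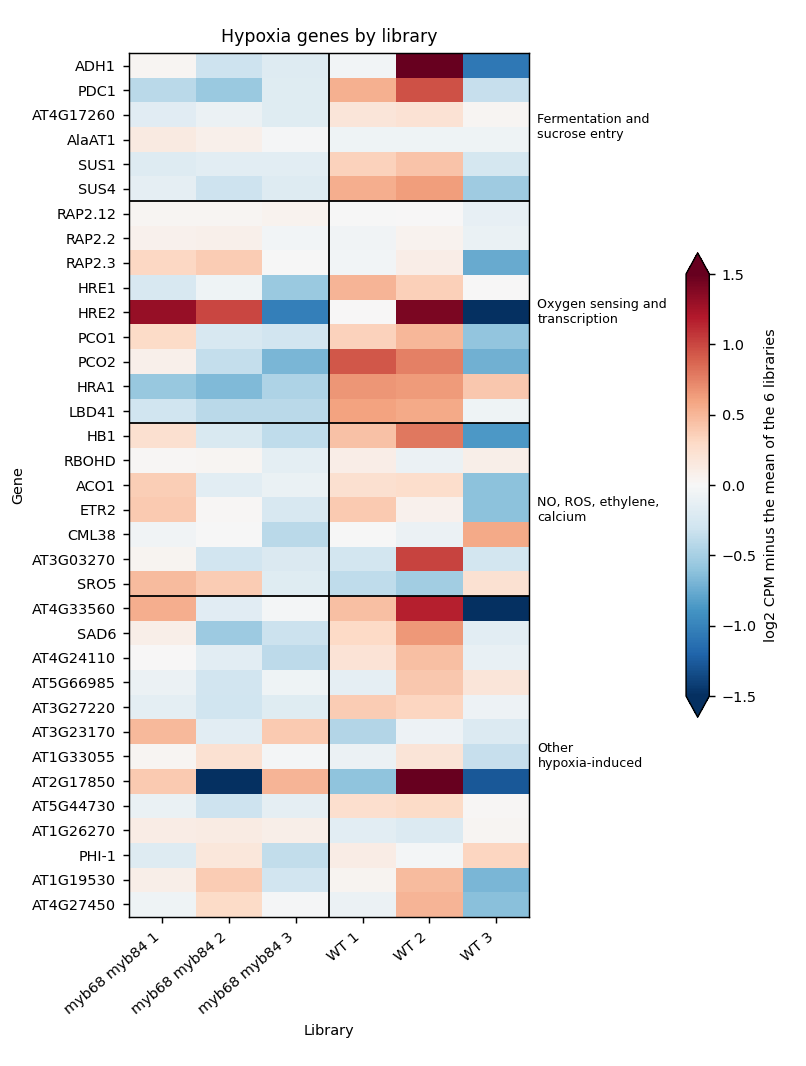
Log2 CPM of each of the 35 tested hypoxia genes (rows, grouped by role) minus its mean over the 6 libraries, in the 3 myb68 myb84 libraries (left of the black line) and the 3 WT libraries (right), with red above and blue below the mean and colours held at 1.5 on either side. WT 2 is mostly red and WT 3 mostly blue, and the mutant libraries are paler than both.

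The calls moved with these libraries. Leaving out a WT library with high levels raises the fold changes, and leaving out one with low levels lowers them. The shifts below thus restate the levels above and are no further evidence on single genes. Without WT 3, PDC1, SUS1, SUS4, HRE1, PCO2, HRA1, LBD41, HB1, SAD6, AT3G27220 and AT5G44730 were lowered and AT1G26270 was raised, and the median log2 fold change of the members was -0.39. Without WT 2, HRA1 was lowered and no other member passed, and the median was -0.05. The share of all tested genes called lower was 3.39% without WT 3 and 3.01% without WT 2, close to the 3.65% with all libraries.

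**Figure D4:**
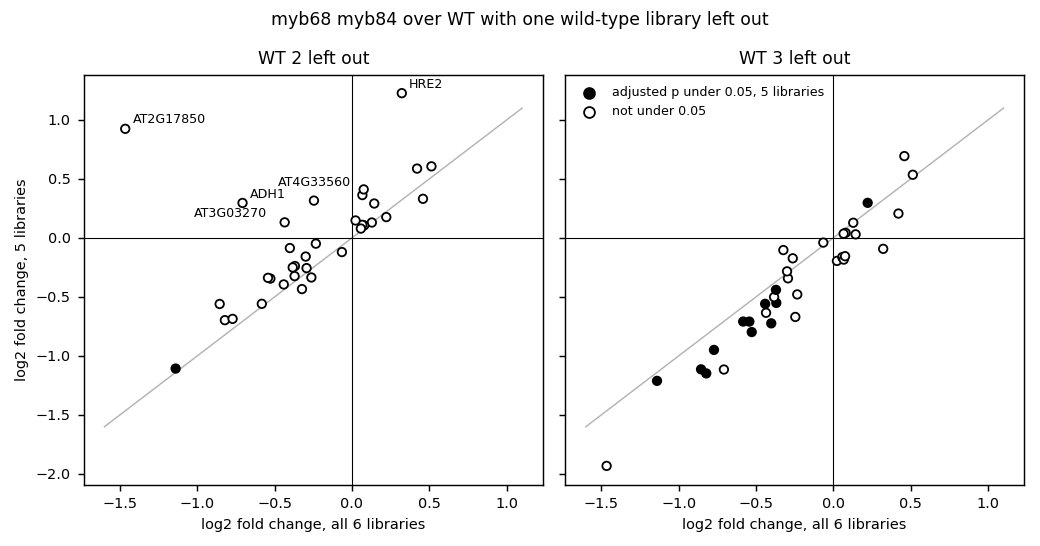
Log2 fold change of myb68 myb84 over WT for each hypoxia gene with all 6 libraries (x axis) and with 1 WT library left out (y axis), WT 2 in the left panel and WT 3 in the right; the grey line marks equal values and filled circles an adjusted p under 0.05 in the fit with 5 libraries. Without WT 2 most genes lie above the line and HRA1 alone is filled, and without WT 3 most lie below it and 12 are filled.

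Per kilobase of exon, the most abundant members were not the fermentation genes. AT1G19530 averaged 394 ± 88.3 CPM per kb in myb68 myb84 and 375 ± 142 CPM per kb in WT. RAP2.12 averaged 199 ± 1.97 CPM per kb in myb68 myb84 and 189 ± 8.96 CPM per kb in WT, and AT4G27450, an aluminium-induced protein gene, 198 ± 27.2 CPM per kb in myb68 myb84 and 188 ± 72.9 CPM per kb in WT. RAP2.3 and RAP2.2 followed at 185 ± 25.2 and 165 ± 6.83 CPM per kb in myb68 myb84, and at 138 ± 39.9 and 157 ± 8.38 CPM per kb in WT. Every library of AT1G19530 lay above every library of RAP2.12, and every library of RAP2.2 above every one of HRE1, which came next. Between RAP2.12, AT4G27450, RAP2.3 and RAP2.2 the libraries of neighbours in the order overlapped. HRE1 averaged 62.8 ± 10.6 CPM per kb in myb68 myb84 and 93.7 ± 16.3 CPM per kb in WT. ADH1 averaged 37.5 ± 4.54 CPM per kb in myb68 myb84 and 61.2 ± 55.0 CPM per kb in WT, and PDC1 3.24 ± 0.424 CPM per kb in myb68 myb84 and 5.83 ± 2.43 CPM per kb in WT. At the low end stood HRE2, with 0.307 ± 0.198 CPM per kb in myb68 myb84 and 0.227 ± 0.251 CPM per kb in WT (SD, n = 3 each throughout).

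**Figure D5:**
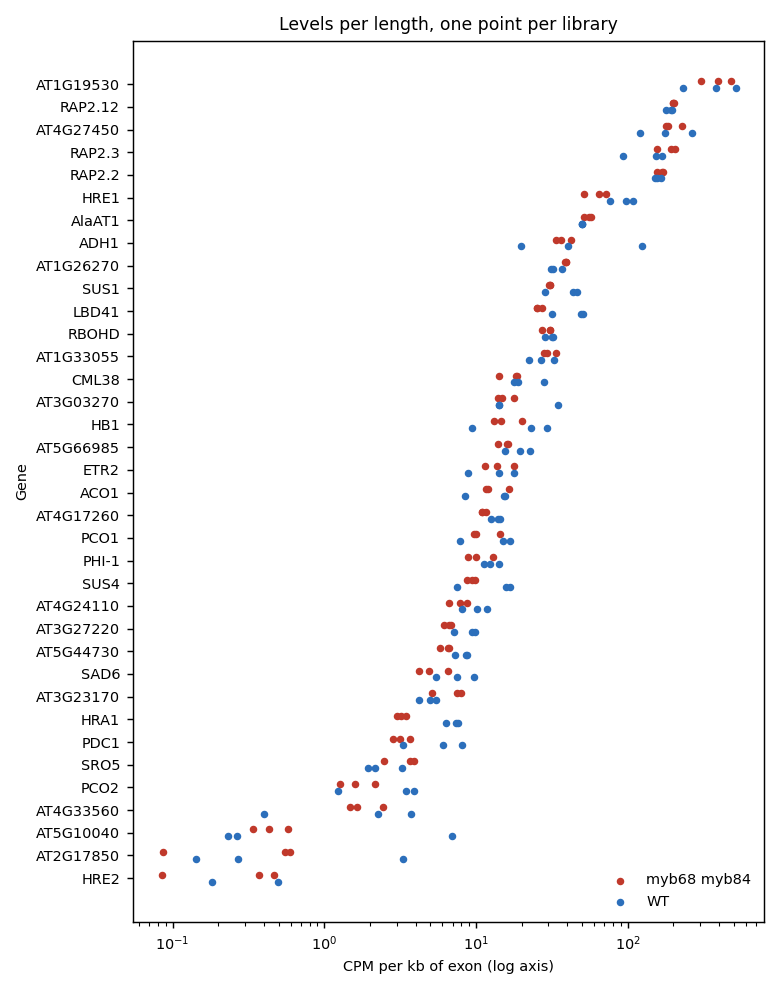
Levels of the hypoxia genes in CPM per kb of exon (x axis, log scale), 1 point per library, with myb68 myb84 in red above WT in blue, ordered by the mean of the 6 libraries. AT4G10270, at 0 in all libraries, and WT 3 of HRE2, at 0 counts, cannot be drawn on a log axis; the constitutive ERF-VII genes RAP2.12, RAP2.3 and RAP2.2 sit near the top, and ADH1 shows the widest WT spread among the abundant genes.

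Genes that work beside the members were read from a pair of further lists. Of 14 partners of the N-degron route and of nitric oxide metabolism, which include the remaining PCO genes, the arginyl transferases, PRT6 (which overlaps AT5G02320 on the other strand) and the nitrate reductases, 13 were tested and 0 were raised or lowered; DESeq2 called 0 and limma-voom 1 raised (5.1% of all genes in it were), before adjustment the p was under 0.05 for 2 lower and 1 higher gene, and the median log2 fold change was 0.05. The nitrate reductase genes NIA2 and NIA1 were the most abundant per length. NIA2 had 756, 576 and 531 CPM in myb68 myb84 and 524, 401 and 370 CPM in WT, groups that did not overlap, with a log2 fold change of 0.52 (adjusted p = 0.0904, edgeR). NIA1 had 172, 95.6 and 116 CPM in myb68 myb84 and 117, 89.8 and 88.7 CPM in WT, a log2 fold change of 0.37 (adjusted p = 0.458). ZPR2, a target of the N-degron route, was too low to test.

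Among 20 further genes of hypoxia-linked metabolism and of the wider induced set, 1 rose, 0 fell and 19 did not pass, with a median of -0.05; before adjustment the p was under 0.05 for 3 lower and 4 higher genes. In DESeq2 there were 3 raised and 2 lowered among the 20, where 5.57% and 4.58% of all its genes were called. The gene that rose was PDC2, a pyruvate decarboxylase of the same family as PDC1. It had 146, 142 and 135 CPM in the myb68 myb84 libraries, against 98.5, 106 and 85.1 CPM in the WT libraries. All mutant libraries were above all WT libraries. The log2 fold change was 0.55 with a standard error of 0.08 (adjusted p = 0.00128, edgeR), and the adjusted p was at most 0.0086 without any 1 library. PDC1 and PDC2 thus had fold changes of opposite sign, of which that of PDC2 passed the test. Their difference was not tested. In the same list, PDC3 (-0.27, adjusted p = 0.516, edgeR) and AT5G01320 of the same family (-0.40, adjusted p = 0.648) were also negative and did not pass. AT5G01320 averaged only 0.636 CPM in myb68 myb84 and 0.812 CPM in WT. Per length PDC2 was more abundant than PDC1, with 61.8 ± 2.26 CPM per kb in myb68 myb84 and 42.3 ± 4.56 CPM per kb in WT. By the mean of all 6 libraries, the most abundant genes of this list per length were AT4G39675 (0.03, adjusted p = 0.967) and PP2-A13 (-0.34, adjusted p = 0.0514), which overlaps AT3G61070. In myb68 myb84 alone AT2G15880 was above PP2-A13, with 92.0 against 73.5 CPM per kb, and in WT it was below it, with 69.3 against 93.3 CPM per kb. The SD of log2 CPM was larger in WT than in myb68 myb84 in 6 of 13 partners and in 9 of 20 further genes. WT 2 was the highest library in 11 of the 20.

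The windows of 250 bases before the annotated starts were searched on both strands for 4 motifs. The loose pattern for the hypoxia-responsive element, AAACCA and any 3 bases before GC, was found before 2 of the 37 genes. These were ADH1 and AT4G10270, which holds it at 2 places. The share over 27443 windows before all annotated nuclear protein-coding genes was 0.809%. The first letters AAACCA, also counted where the longer motif was found, were present before 14 of the 37 (37.8%, against 27.3%). The G-box CACGTG, shown above in the windows of ADH1 and LBD41, was present in 6.49% of the windows of all annotated nuclear protein-coding genes. The GCC box GCCGCC, a site of many ERF factors, was present before 2 of the 37, AT4G33560 and AT2G17850 (5.41%, against 1.87%). These are matches of letters in a short window that ends at the annotated gene start. Transcribed bases before the start codon and sequence further upstream were not searched, so a gene without a match may hold one there.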

How the data were processed

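The deposited files hold whole-number counts per gene for 3 myb68 myb84 and 3 WT root libraries, with no normalization by the authors. Per the submitters' processing notes, Trim Galore, HISAT, featureCounts and DESeq2 were used with the TAIR10 build; versions, strand setting and handling of multiple matches were not stated. Among counts of 10 to 30, 72.9% to 76.5% were even, so mates of a pair appear to be mostly counted separately, and counts then overstate the number of fragments. Limits from a count of 0 (3 counts) cover counting error only. They treat counts as independent, so they are too low where mates were counted separately.

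Genes were tested with edgeR 4.0.16 in R 4.3.3 (quasi-likelihood F test, robust fit, TMM scaling, filterByExpr with a minimum count of 10), with genotype as the only term and Benjamini-Hochberg adjustment over the 20941 tested genes; an adjusted p under 0.05 is a call. Log2 fold changes are myb68 myb84 over WT. CPM are TMM-scaled; spreads and deviations used log2 CPM with 0.5 added to counts. The biological coefficient of variation was 10.3%. The p-values measure the spread between pools of plants. The steps were tested on counts simulated with the same dispersion for every gene and both genotypes, which does not cover the wider WT spread of the members.

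Groups and replicate numbers came from the sample titles. Alternatives were DESeq2 size factors and upper-quartile scaling in edgeR, no filter, a filter that asks for 1 CPM in 3 libraries, limma-voom (limma 3.58.1), DESeq2 1.42.0, thinning to 19446419 counts, the replicate number as a block, and each library left out.

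The members and lists were chosen with earlier results of these data known. Genes are named where called, where among the 2 largest absolute fold changes of a role or the 6 highest levels per length, for the ERF-VII, PCO, ADH1, PDC1, phytoglobin and sucrose synthase genes, and, of the further lists, where called or among the 2 most abundant; other names were chosen after their values were seen. Positions, gene models and sequences are RefSeq's on TAIR10.1, whose annotation gave a model for 32548 of the identifiers. Overlaps are marked for the members and the partner genes named, and near-identical copies were not searched for. The upstream window of 1 called gene is not reported here.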

Additional observations from a re-analysis of the deposited data

How the results depend on the processing

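Of 485 fold changes of the 35 tested members over these alternatives, 440 kept their direction and their side of the threshold, 18 passed where they had not, 11 no longer passed and 16 changed sign. None of the sign changes involved a passing value. The number of members lowered, 3 with all libraries, was 5 with DESeq2 and 1 to 11 with a library left out; the number raised, 0 with all libraries, was 0 to 1 with a library left out. Over all genes, leaving out a library gave 579 to 947 raised (975 with all) and 435 to 723 lowered (764 with all), the lowest without myb68 myb84 3 for raised and without WT 1 for lowered.

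Over all tested genes, same-numbered libraries of the genotypes hardly deviated together (correlations of -0.0082, 0.020 and 0.077), and not every library correlated best with its own number. The value for replicate 3 was the largest of all pairs of a mutant and a WT library. Among the members, replicate 3 had the lowest median deviation in both genotypes (-0.18 in myb68 myb84, -0.20 in WT), with myb68 myb84 2 close (-0.16). A shared replicate effect on the members alone was not tested. With the replicate number as a block, 1 member rose (RAP2.3, log2 0.46, adjusted p = 0.00731) and 4 fell, and 1154 genes were raised and 915 lowered. AT4G33560 changed sign under limma-voom (0.00634) and under the block (0.00987). With a library left out, log2 fold changes ran from -1.12 to 0.30 for ADH1, -0.18 to 1.23 for HRE2, -0.20 to 0.16 for ACO1, -0.16 to 0.31 for ETR2 and -0.67 to 0.13 for AT3G03270. They ran from -0.67 to 0.32 for AT4G33560, -2.03 to 0.92 for AT2G17850, -0.18 to 0.36 for AT1G19530 and -0.16 to 0.41 for AT4G27450. The cause was not tested.

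With 3 pools a genotype, the WT spread of the fermentation genes limits the differences that can be detected in them, and HRE2, AT2G17850 and AT5G10040 rest on few counts.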
